A study of Mus musculus with 74 samples.

Results

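The genes that write and erase CpG methylation were followed through mouse ES cells in which LIF was withdrawn and Nanog was switched on or off. They were taken by name: the methyltransferase genes Dnmt1, Dnmt3a and Dnmt3b, the cofactor genes Dnmt3l and Uhrf1, the dioxygenase genes Tet1, Tet2 and Tet3, and the glycosylase gene Tdg. These are 9 of the 37620 genes in the deposited table, and all 9 were counted in each of the 35 RNA-seq libraries. The cells were E14Tg2a ES cells and lines made from them, grown on gelatine in serum medium (FCS), and the tables held 12 conditions. In SunTag cells, an inactive dCas9 carrying an epitope array and an antibody fused to the activator VP64 are both made from a Tetracycline Responsive Element after addition of doxycycline (Dox), so that VP64 is brought to the promoter named by the guide RNA. Nanog SunTag cells (11 libraries) carry a Nanog guide, and the cells labelled Nanog/Otx SunTag (15 libraries) carry an Otx2 guide as well, so that Dox acts on both genes in them. Nanog SunTag cells were 2 clones, C1 and C2, from each of which 1 Nanog/Otx clone was made (C1ON3 and C2ON3), and the rtTA, SunTag and guide transgenes were present in untreated cells too. SunTag cells were kept with or without LIF (10 ng/mL) and with or without Dox (1 µg/mL) for 3 days. 44iN cells are Nanog-null and carry a Dox-inducible Nanog transgene. They were sampled in Dox (2 libraries), 24 h after Dox removal (2 libraries) and after long-term (LT) culture without Dox (2 libraries), always with LIF. Tg2a wild-type cells in FCS and LIF gave 3 libraries.

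Dnmt3a and Dnmt3b place methyl groups on unmethylated CpGs, and Dnmt3l, which lacks a working catalytic site, binds both enzymes and stimulates them. Dnmt1 copies methylation onto the new strand after replication, to which Uhrf1, a reader of hemimethylated CpG, recruits it. Tet1, Tet2 and Tet3 oxidise methylcytosine, and Tdg cuts out the more oxidised bases so that repair restores cytosine. ES cells in serum and LIF express writers and erasers side by side, and the exit from naive pluripotency towards the formative epiblast is known for a rise of de novo methylation.

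The promoter windows of Dnmt3b, Tet2, Tet3 and Tdg are shown because these are the 4 genes that moved in the same direction in both kinds of SunTag cells on LIF withdrawal and have a single annotated start each. Each window runs from 250 bases before to 50 bases after the start, 5′ to 3′ on the coding strand, taken from RefSeq on GRCm38.p6, which is not the build of the counts (mm9). Capitals mark CpG, the dinucleotide that the 9 gene products act on.
Dnmt3b, chr2:153649199-153649498, + strand: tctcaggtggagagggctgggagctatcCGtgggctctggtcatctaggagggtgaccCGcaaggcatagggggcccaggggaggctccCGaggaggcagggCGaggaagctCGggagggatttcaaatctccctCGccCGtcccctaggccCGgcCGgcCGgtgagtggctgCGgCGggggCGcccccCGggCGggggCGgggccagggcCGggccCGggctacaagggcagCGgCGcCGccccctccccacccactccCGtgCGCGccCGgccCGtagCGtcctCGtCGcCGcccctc
Tet2, chr3:133544341-133544640, - strand: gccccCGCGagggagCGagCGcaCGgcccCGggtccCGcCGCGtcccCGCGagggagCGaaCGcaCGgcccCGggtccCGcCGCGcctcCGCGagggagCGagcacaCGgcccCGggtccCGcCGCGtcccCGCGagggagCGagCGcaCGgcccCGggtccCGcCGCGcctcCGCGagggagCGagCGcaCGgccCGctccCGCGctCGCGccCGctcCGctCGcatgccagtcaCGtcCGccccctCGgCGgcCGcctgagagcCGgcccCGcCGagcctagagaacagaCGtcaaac
Tet3, chr6:83441629-83441928, - strand: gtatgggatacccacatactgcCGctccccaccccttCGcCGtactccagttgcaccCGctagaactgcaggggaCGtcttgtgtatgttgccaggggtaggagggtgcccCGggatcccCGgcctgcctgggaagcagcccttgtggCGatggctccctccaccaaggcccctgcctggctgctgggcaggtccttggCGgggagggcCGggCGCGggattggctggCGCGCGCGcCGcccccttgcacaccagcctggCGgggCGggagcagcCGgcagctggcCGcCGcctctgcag
Tdg, chr10:82629588-82629887, + strand: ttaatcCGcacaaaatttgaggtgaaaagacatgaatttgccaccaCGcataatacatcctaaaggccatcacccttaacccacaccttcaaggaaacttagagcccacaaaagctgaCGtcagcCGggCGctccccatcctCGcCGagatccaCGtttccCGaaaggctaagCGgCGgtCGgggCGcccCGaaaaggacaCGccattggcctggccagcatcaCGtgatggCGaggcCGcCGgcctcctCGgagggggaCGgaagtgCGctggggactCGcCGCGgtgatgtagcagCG
The Tet2 window held 57 CpGs, a number that 0.154% of 32544 promoter windows of this length reached. The Dnmt3b window held 30 CpGs (reached by 11.8% of windows), the Tdg window 26 (17.0%) and the Tet3 window 22 (23.3%), against a median of 7 over all windows. The windows were searched on both strands for TTCNNNGAA, the core recognised by Stat3, through which LIF acts, and for the E-box CACGTG. Of the 4 windows, only that of Tdg held them, each motif 1 time, and over all windows TTCNNNGAA was in 8.33% and CACGTG in 7.17%. These matches describe the letters of the windows and no binding was measured at them here.

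The libraries held between 6107512 and 92244655 estimated counts, with a median of 29298745. Levels are given below as normalised counts, the authors' estimated counts divided by a size factor per library, and comparisons as log2 fold changes with their standard error (SE) from edgeR's quasi-likelihood test, where a gene is called at a Benjamini-Hochberg adjusted p under 0.05. Nanog itself followed the labels, at 15880 normalised counts in 44iN cells with Dox, 722.5 after 24 h without it, 251.9 in LT cells and 19714 in Tg2a cells. In SunTag cells Nanog was higher with Dox under every pairing of guide and LIF, from 24924 to 84519 with LIF and from 5916 to 51805 without it in Nanog SunTag cells, and mean Otx2 was higher with Dox only where its guide was present (952.3 to 3509 with LIF). Libraries also differed in a trend with GC content, the median log2 deviation of genes with at most 41.7% GC minus that of genes with at least 57.9% GC, the lowest and highest deciles of 10812 genes. It was 1.07 to 3.44 in 44iN cells compared 24 h after Dox removal, 1.8 to 1.93 in LT cells, 0.65 to 2.18 in Tg2a cells and -1.44 to 0.92 in SunTag cells, so levels of SunTag cells and of the other lines are set side by side below but not tested against each other.

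All cultures expressed pluripotency genes (Pou5f1, Sox2, Sall4 and Utf1), with summed levels of 25186 to 69694. In untreated cells without LIF, 6 of 6 naive markers (Nanog, Esrrb, Klf4, Zfp42, Tfcp2l1, Tbx3) fell and 4 of 4 formative markers (Fgf5, Otx2, Pou3f1, Lef1) rose with either set of guides. Their summed levels went from 82348-85656 to 5035-11511 (naive) and from 1160-1786 to 11989-15080 (formative) in Nanog SunTag cells. Summed levels over all 35 libraries were 143.1 to 9573 for primitive endoderm (6 markers), 88.64 to 688.2 for primitive streak and mesoderm (4), 19.98 to 663.9 for neural (2 of 3 markers in the table) and 4.629 to 229.2 for trophectoderm (3). Mesp1, Neurog2 and Elf5 were at 0 in every library of at least 1 condition. On LIF withdrawal without Dox, 4 of 5 tested endoderm markers fell in Nanog SunTag cells and 1 of 6 rose in Nanog/Otx SunTag cells, and 2 of 3 and 2 of 2 tested streak markers rose. The summed endoderm level nevertheless went from 687.9-1584 to 1548-1819 in the former and from 323.2-1018 to 1012-1979 in the latter. Krt7, the 1 trophectoderm marker tested, rose in both, and Pax6, the 1 neural marker tested, was called in neither. The part of these shifts in the changes below was not tested.

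**Figure D1:**
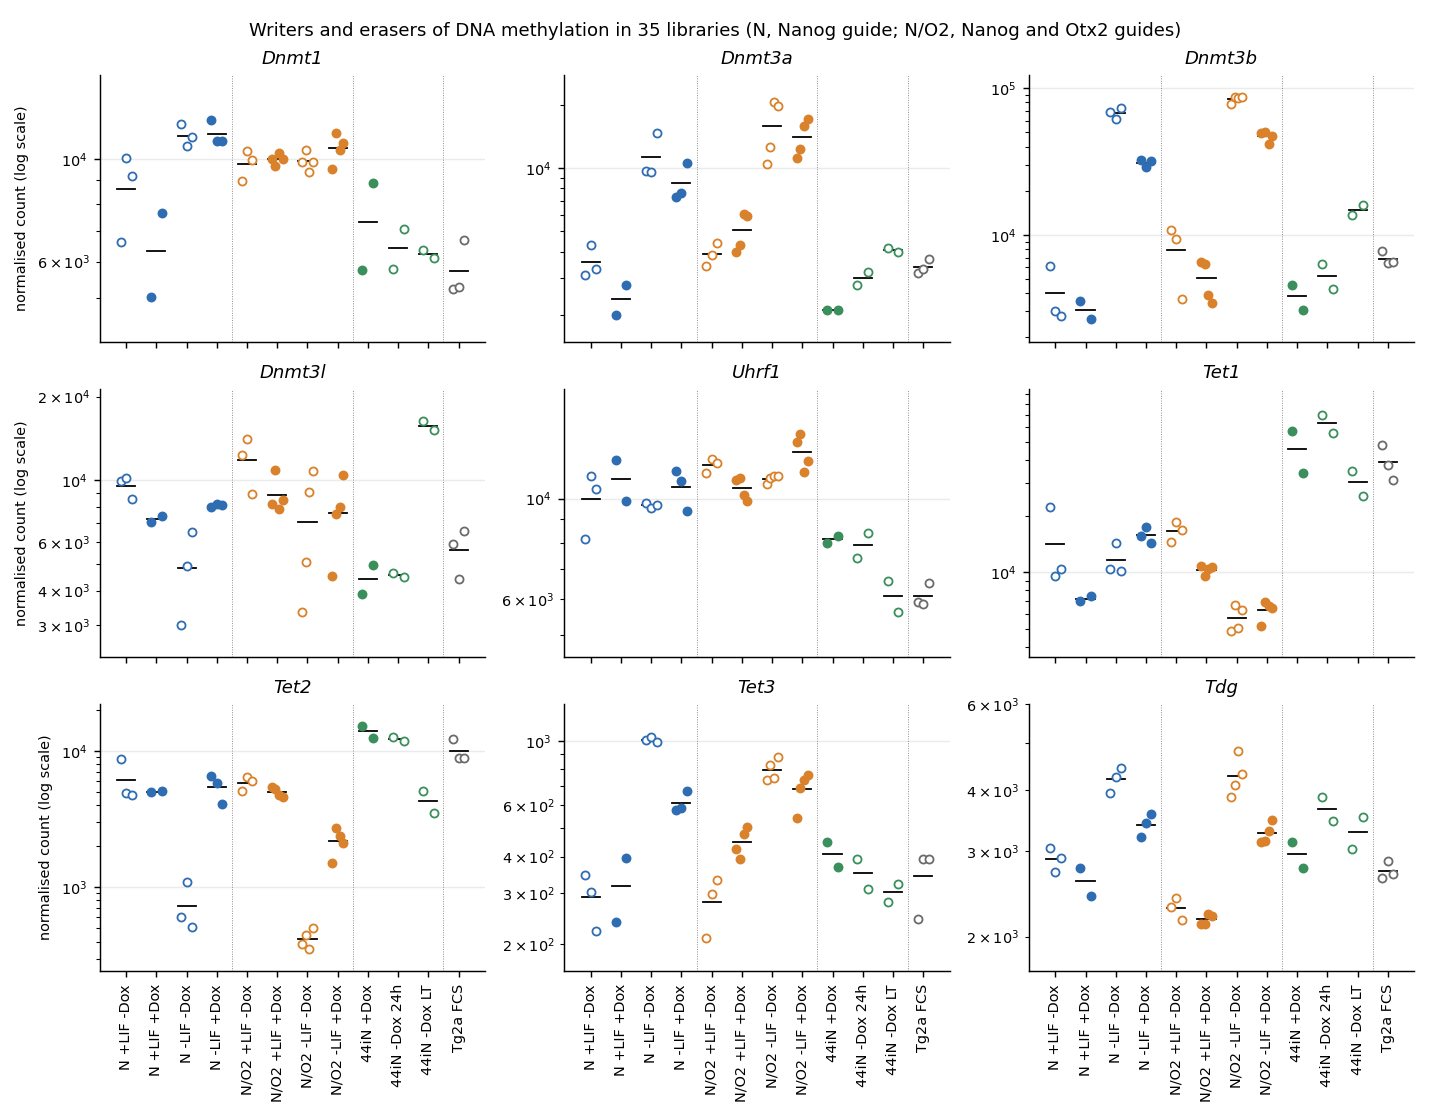
Normalised counts (log axis) of the 9 genes in each of 35 libraries, by condition, with open points for libraries without Dox, filled points for libraries with Dox, colours for the kind of cell and a line at each condition's mean. Dnmt3b spans 2647 to 86763 and Tet2 349.7 to 15213, while the libraries of Dnmt1, Uhrf1 and Tdg each stay within 2.47-fold of one another.

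The highest library exceeded the lowest 43.5-fold for Tet2, 32.8-fold for Dnmt3b, 14.5-fold for Tet1 and 10.3-fold for Dnmt3a. The spread was 5.4-fold for Dnmt3l and 4.94-fold for Tet3, and only 2.47-fold for Uhrf1, 2.42-fold for Dnmt1 and 2.27-fold for Tdg. Per kilobase of annotated exon, Tet3 was the lowest of the 9 in its median library (38.42 normalised counts per kb) and Dnmt3l the highest (2668), with Uhrf1 at 2468, Dnmt1 at 1872 and Dnmt3b at 1822. Without LIF and Dox, Dnmt3b reached a mean of 16513 per kb in Nanog/Otx SunTag cells. There it held 61.3 to 67.8% of the summed per-kb level of the 9 genes, against 6.53 to 16.4% with LIF.

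Withdrawal of LIF without Dox asked how the genes respond as naive pluripotency is lost. In Nanog SunTag cells 6 of the 9 genes were called (4 higher, 2 lower), where 41.5% of all 15624 genes tested were called. In Nanog/Otx SunTag cells, in separate libraries of clones made from those of the first, 6 were also called (4 higher, 2 lower), against 49.8% of all 15609 genes. With so many genes called, these counts say little of the 9 genes by themselves, and the size of each change follows. Since the cultures are bulk samples, fewer cells of a type and less RNA per cell cannot be told apart in any level given here.

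Among the de novo writers, Dnmt3b (ENSMUSG00000027478, chr2:153475186-153513466 in mm9, + strand) carried the largest rise. Its 3 Nanog SunTag libraries with LIF and no Dox stood at 6129, 3039 and 2802 normalised counts, and its 3 libraries without LIF at 69072, 61951 and 73045. The mean was 17.0-fold higher without LIF, a log2 fold change of 4.07 (SE 0.30, adjusted p = 3.41e-06). In Nanog/Otx SunTag cells the 3 libraries with LIF stood at 10708, 9310 and 3638, and the 4 without it at 78562, 86763, 85777 and 86432. That was 10.7-fold between means, and 3.38 on the log2 scale (SE 0.32, adjusted p = 7.51e-07). The libraries with and without LIF lay far apart in both, and the lowest library with LIF came from clone C2 each time. Dnmt3a (ENSMUSG00000020661, chr12:3806007-3914443, + strand), the other active de novo enzyme, rose from 3104, 4286 and 3307 to 9656, 9595 and 14734 in Nanog SunTag cells, by 1.65 on the log2 scale (SE 0.23, adjusted p = 0.000227). With both guides it rose from 3437, 3869 and 4426 to 10420, 12622, 20678 and 19721, by 1.99 (SE 0.25, adjusted p = 1.20e-05). No library with LIF reached any without it.

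Dnmt3l (ENSMUSG00000000730, chr10:77504692-77526367, + strand), the cofactor of these enzymes, did not follow them. Its libraries in Nanog SunTag cells went from 9916, 10210 and 8553 to 3018, 4891 and 6531, a fall by 1.01 on the log2 scale (SE 0.22, adjusted p = 0.00396) without overlap. In cells with both guides it went from 12332, 14076 and 8920 to 3347, 5066, 9098 and 10796, so that the 2 clone C2 libraries without LIF overlapped the range with LIF. The log2 fold change there was -0.77 (SE 0.33, adjusted p = 0.0667), and DESeq2 gave -0.75 (adjusted p = 0.0438). With the clone and replicate as a block in edgeR it was -1.02 (adjusted p = 0.00761). One library with LIF and no Dox has the number 1 in its title (C2ON3-1) and the number 2 in its column of the table, and blocked by the column's number Dnmt3l gave -0.95 (adjusted p = 0.0175). It was also called without +LIF -Dox C2ON3-1 (-0.93), -LIF -Dox C2ON3-2 (-1.05, adjusted p = 0.0163) or -LIF +Dox C1ON3-1 (-0.77, adjusted p = 0.0491). Those were 3 of 15 fits that left out a library, and 5 of 9 alternative fits called Dnmt3l. The ratio of Dnmt3b to Dnmt3a per kb went from 2.31-6.44 to 16.2-23.3 in Nanog SunTag cells and from 2.68-10.2 to 13.5-24.6 in Nanog/Otx SunTag cells. Length here joins all annotated exons, 5.11 kb for Dnmt3b and 16.64 kb for Dnmt3a. The size of the ratio, though not its fold change, depends on these lengths.

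Neither maintenance gene was called. Dnmt1 (ENSMUSG00000004099, chr9:20711650-20757317, - strand) went from 6603, 10047 and 9184 to 11909, 10678 and 11158 in Nanog SunTag cells, a log2 fold change of 0.37 (95% interval -0.03 to 0.77, adjusted p = 0.125). Blocking on the clone gave 0.47 (adjusted p = 0.0386). Of 7 alternative fits 2 called Dnmt1, and of 11 that left out a library 0 did. In Nanog/Otx SunTag cells the log2 fold change of Dnmt1 was -0.02 (-0.18 to 0.14). Uhrf1 (ENSMUSG00000001228, chr17:56442744-56462909, + strand) stood at 8164, 11224 and 10515 with LIF and at 9794, 9540 and 9696 without it in Nanog SunTag cells, -0.06 on the log2 scale (-0.38 to 0.26). With both guides Uhrf1 gave -0.13 (-0.28 to 0.02). After GC correction, chosen after seeing the data, it gave -0.18 (adjusted p = 0.0361). Of 9 alternative fits 3 called Uhrf1, and of 15 that left out a library 0 did.

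Of the Tet genes, Tet2 (ENSMUSG00000040943, chr3:133126643-133207354, - strand) fell furthest in both kinds of cells. The Nanog SunTag libraries stood at 8676, 4873 and 4765 with LIF and at 600.1, 1091 and 507.7 without it, a mean 8.33-fold lower and a log2 fold change of -3.09 (SE 0.33, adjusted p = 4.03e-05). In cells with both guides it went from 5040, 6470 and 5962 to 385.8, 443.8, 349.7 and 498.6, 13.9-fold lower between means and -3.83 on the log2 scale (SE 0.18, adjusted p = 6.73e-10). Every library without LIF lay below every library with it. Tet3 (ENSMUSG00000034832, chr6:83312367-83391672, - strand), scarce in cells with LIF, rose from 345.4, 301.7 and 222.2 to 1009, 1033 and 992.0 in Nanog SunTag cells (log2 fold change 1.79, SE 0.23, adjusted p = 0.000114). In Nanog/Otx SunTag cells it rose from 209.2, 296.4 and 333.3 to 735.5, 825.5, 745.3 and 880.3 (1.51, SE 0.17, adjusted p = 3.46e-06), again without overlap.

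Tet1 (ENSMUSG00000047146, chr10:62267318-62361866, - strand) was the 1 gene whose response was called different between Nanog and Nanog/Otx SunTag cells. No Dox was given here, so the SunTag system was not induced. The Nanog/Otx cells are later clones, and their libraries carry another series of names. These and the added guide cannot be told apart. Nanog SunTag libraries were at 22461, 9620 and 10488 with LIF and at 10451, 14288 and 10148 without it, which overlap (log2 fold change -0.32, 95% interval -0.94 to 0.31). By clone, Tet1 went from 22461 to 10451 and 14288 in C1 and from 9620 and 10488 to 10148 in C2. With both guides it fell from 14548, 18717 and 16957 to 4839, 6698, 5035 and 6297, by 1.58 on the log2 scale (SE 0.13, adjusted p = 1.80e-07). The difference between the responses, a comparison in all 26 SunTag libraries that was added after seeing the data, was -1.28 (SE 0.30, adjusted p = 0.0267). Tet1 was the 1 gene of 9 called in it, where 2.49% of all genes were. At an unadjusted p under 0.05 there were 4 of 9: Tet1, Tdg (0.34), Tet2 (-0.75) and Dnmt1 (-0.39). With the clone as a block after GC correction, Dnmt1 was called too, at -0.49 (adjusted p = 0.0262). The call of Tet1 was kept when any 1 of 20 of the 26 libraries was left out. It was lost without any 1 of Nanog +LIF -Dox C2-1 (-1.06, adjusted p = 0.0714) or C2-2 (-1.13), Nanog -LIF -Dox C1-2 (-1.11), Nanog/Otx +LIF -Dox C1ON3-2 (-1.18), and Nanog/Otx -LIF -Dox C1ON3-1 (-1.20) or C2ON3-1 (-1.22, adjusted p = 0.0538). After correction for GC content it was -1.20 (adjusted p = 0.00184).

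Tdg (ENSMUSG00000034674, chr10:82092573-82113544, + strand), the glycosylase that completes erasure, rose modestly. Nanog SunTag libraries went from 3044, 2717 and 2906 to 3938, 4255 and 4450, by 0.52 on the log2 scale (SE 0.13, adjusted p = 0.00659). In cells with both guides it went from 2296, 2406 and 2166 to 3871, 4095, 4812 and 4310, by 0.86 (SE 0.08, adjusted p = 5.25e-07). Neither pair of groups overlapped. The table also counts Gm9855, which RefSeq lists as the pseudogene Tdg-ps2, and reads that suit both are divided between them by estimation, so the level of Tdg is uncertain to that extent. Gm9855, looked up after the values of Tdg were seen, stood at 827.4 to 888.4 with LIF and at 2775 to 3066 without it in Nanog SunTag cells. The sum of both went from 3606-3872 to 6713-7516 there and from 3764-3848 to 6309-7713 in Nanog/Otx SunTag cells, without overlap.

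**Figure D2:**
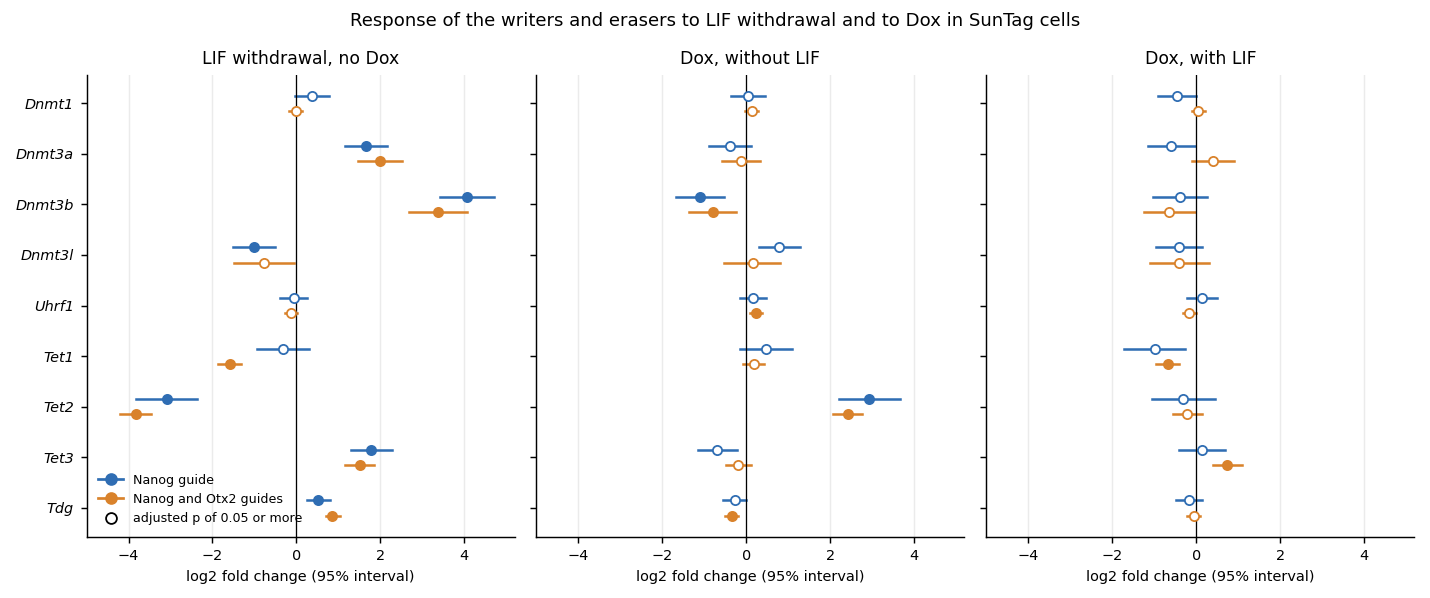
Log2 fold changes with 95% intervals of the 9 genes on LIF withdrawal without Dox (left), with Dox in cells without LIF (middle) and with Dox in cells with LIF (right), for Nanog (blue) and Nanog/Otx (orange) SunTag cells, filled where the adjusted p is under 0.05. Dnmt3b (4.07 and 3.38) and Tet2 (-3.09 and -3.83) stand furthest from 0 on LIF withdrawal, and Tet2 (2.93 and 2.42) with Dox in cells without LIF.

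Adding Dox in cells without LIF asked how these changes differ once Nanog is induced. No SunTag library without a guide was present, so Dox and the SunTag proteins cannot be told apart from Nanog. In Nanog/Otx SunTag cells mean Otx2 went up as well, from 4074 to 7173. The libraries without LIF and Dox are shared with the comparisons above, so a high or low library there moves both. With Dox 6 of 6 naive markers, Nanog among them, rose with either set of guides, while of 4 formative markers 2 fell in Nanog SunTag cells, and 1 rose (Otx2, the target of the guide) and 1 fell in Nanog/Otx SunTag cells. In Nanog SunTag cells 2 of 9 genes were called, Tet2 higher and Dnmt3b lower, where 5.14% of all genes were called. In Nanog/Otx SunTag cells 4 were called, Tet2 and Uhrf1 higher and Dnmt3b and Tdg lower, where 17.3% of all genes were.

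Of the 9 genes, Tet2 had the largest change with Dox. Without LIF, its Nanog SunTag libraries stood at 600.1, 1091 and 507.7 without Dox and at 6514, 5788 and 4090 with it, 7.45-fold between means and 2.93 on the log2 scale (SE 0.33, adjusted p = 0.000555). The Dox libraries overlapped those of cells with LIF and no Dox, at 4765 to 8676. With both guides Dox raised Tet2 from 385.8, 443.8, 349.7 and 498.6 to 1512, 2719, 2362 and 2123, 5.19-fold and 2.42 on the log2 scale (SE 0.16, adjusted p = 4.04e-07). There every Dox library stayed below every library with LIF, and the mean stayed 2.67-fold lower. The Dox response without LIF was nevertheless not called different between the guides for Tet2, at -0.56 (95% interval -1.26 to 0.14). In that difference 0 of 9 genes were called, 0 at an unadjusted p under 0.05 and 0 by DESeq2, where 0.0308% of all genes were called.

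Dnmt3b moved the other way, in part. Dox lowered it from 69072, 61951 and 73045 to 32300, 28834 and 31976 in Nanog SunTag cells, 2.19-fold between means and -1.10 on the log2 scale (SE 0.27, adjusted p = 0.0343). In cells with both guides it lowered Dnmt3b from 78562-86763 to 49578, 50608, 41328 and 46965, 1.79-fold and -0.80 (SE 0.26, adjusted p = 0.0463). The groups did not overlap in either, yet both calls are marginal. The first was lost when any 1 of the 6 Nanog SunTag libraries without LIF was left out (log2 fold change -1.15 to -1.04, adjusted p 0.0707 to 0.124) and after correction for GC content (-1.05, adjusted p = 0.0728). The second was lost in 11 of 15 such fits (-0.84 to -0.75, adjusted p 0.0504 to 0.101): without any 1 of the 8 libraries without LIF, and without Nanog/Otx +LIF -Dox C1ON3-2, +LIF +Dox C1ON3-2 or +LIF +Dox C2ON3-1. Even with Dox, Dnmt3b stayed 7.78-fold and 5.98-fold above the mean with LIF and no Dox.

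The other genes answered Dox less. Tdg went from 3871, 4095, 4812 and 4310 to 3131, 3142, 3298 and 3477 in Nanog/Otx SunTag cells, a fall by 0.35 on the log2 scale (SE 0.07, adjusted p = 0.00366), against -0.28 (adjusted p = 0.258) in Nanog SunTag cells. Its sum with Gm9855 went from 6309-7713 to 4959-5567 in the former and from 6713-7516 to 5089-5884 in the latter. Uhrf1 went from 10745-11226 to 13328, 13887, 11471 and 12078 in Nanog/Otx SunTag cells, a rise of 0.23 (SE 0.07, adjusted p = 0.0242). That call was lost without -LIF -Dox C1ON3-1 (0.22, adjusted p = 0.0542), -LIF +Dox C1ON3-1 (0.21) or -LIF +Dox C1ON3-2 (0.18, adjusted p = 0.0982), without a filter on low counts (adjusted p = 0.07) and with GC correction (0.15, adjusted p = 0.0965). Dnmt3l stood at 7976, 8185 and 8133 with Dox in Nanog SunTag cells against 3018, 4891 and 6531 without it, 0.78 on the log2 scale (SE 0.22, adjusted p = 0.0679). Blocking on the clone gave 0.80 (adjusted p = 0.0364), and Dnmt3l was also called without +LIF -Dox C1-1 (0.80) or -LIF -Dox C2-1 (1.08, adjusted p = 0.0187). DESeq2 called Dnmt3l too, at 0.76 (adjusted p = 0.0213). Of 7 alternative fits 4 called Dnmt3l, and of 11 that left out a library 2 did. Tet3 gave -0.69 (adjusted p = 0.1) in Nanog SunTag cells, where its Dox libraries (580.8, 586.4 and 674.1) lay below the others (992.0 to 1033), and it was called without +LIF -Dox C1-1 (-0.68, adjusted p = 0.0438) or +LIF +Dox C1-1 (-0.69). DESeq2 called Tet3 in Nanog SunTag cells, at -0.71 (adjusted p = 0.0199), the 1 of 7 alternative fits that did. Of 11 fits that left out a library, 2 called it. Tet3 gave -0.19 (adjusted p = 0.412) in Nanog/Otx SunTag cells. Dnmt3a, at 7272, 7593 and 10619 with Dox, gave -0.39 (adjusted p = 0.415) in Nanog SunTag cells. The groups overlapped only across clones: the C1 libraries went from 9656 and 9595 to 7272 and 7593, and the C2 library from 14734 to 10619. With both guides Dnmt3a was at 11179 to 17165 with Dox and gave -0.13 (adjusted p = 0.739). Dnmt1 gave 0.04 (95% interval -0.36 to 0.44) and 0.13 (-0.02 to 0.28), and Tet1 0.47 (-0.15 to 1.10) and 0.18 (-0.08 to 0.43), in Nanog and Nanog/Otx SunTag cells, and neither was called. Uhrf1 gave 0.16 (-0.16 to 0.48) in the former and Dnmt3l 0.15 (-0.52 to 0.81) in the latter.

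Dox was also given to cells with LIF. In Nanog SunTag cells 0 of 9 were called, 2 at an unadjusted p under 0.05 (Dnmt3a and Tet1) and 0 by DESeq2, where 0.563% of all genes were called. Only 2 libraries had Dox here, and Nanog itself, 1.74 higher on the log2 scale, was not called (adjusted p = 0.0793). In cells carrying both guides 2 were called, where 22.9% of all genes were, and the responses with and without LIF were not tested against each other in these cells. Tet3 rose there from 209.2, 296.4 and 333.3 to 426.1, 391.9, 478.3 and 504.8 (log2 fold change 0.74, SE 0.16, adjusted p = 0.00536), and Tet1 fell from 14548, 18717 and 16957 to 10761, 9552, 10432 and 10682 (-0.68, SE 0.13, adjusted p = 0.00222), both without overlap. Tet1 in Nanog SunTag cells with LIF was at 6996 and 7484 with Dox, below its 9620 to 22461 without it, -0.99 on the log2 scale (95% interval -1.71 to -0.27, adjusted p = 0.204). Without the library at 22461 (+LIF -Dox C1-1) the log2 fold change of Tet1 was -0.46 (adjusted p = 0.185), the fits without any other library gave -1.22 to -0.92, and 0 of these 11 fits called it. With the clone as a block after GC correction, Tet1 was called, at -0.83 (adjusted p = 0.0243), the 1 of 7 alternative fits to call it. Dnmt3a gave 0.40 (adjusted p = 0.241) in Nanog/Otx SunTag cells, and 0.26 with the clone and replicate as a block (adjusted p = 0.0391, or 0.0376 by the column's number). Dnmt3b gave -0.64 (adjusted p = 0.113), and -0.97 without +LIF -Dox C2ON3-1, its lowest library in that group (adjusted p = 0.00343), and -0.80 after GC correction (adjusted p = 0.0421). Uhrf1 gave -0.16 (adjusted p = 0.126), and -0.33 after GC correction (adjusted p = 0.00301). Of 9 alternative fits in these cells, 2 called Dnmt3a, 3 Dnmt3b and 3 Uhrf1. Of 15 fits that left out a library, 0, 1 and 0 did. In the difference of the Dox response with LIF between guides, also added after seeing the data, 0 of 9 genes were called, 0 by DESeq2 and 2 at an unadjusted p under 0.05 (Dnmt1, 0.48, and Dnmt3a, 0.97), where 0.037% of all genes were called.

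Whether the response to Dox depended on LIF was tested as an interaction in Nanog SunTag cells, where 1.93% of all genes and 1 of the 9, Tet2, were called. The Dox response of Tet2 was 3.24 larger on the log2 scale without LIF than with it (SE 0.49, adjusted p = 0.00908). It was kept in 10 of 11 fits that left out a library (2.88 to 3.63) and fell just short without Nanog +LIF +Dox C1-1 (3.20, adjusted p = 0.0527), which left that group with 1 library, assumed to vary like the other groups. Tet1 gave 1.47 (SE 0.44, adjusted p = 0.124), and 1.45 when blocked on the clone (adjusted p = 0.0432). DESeq2 gave 1.43 for Tet1 (adjusted p = 0.033), and edgeR after GC correction 1.23 (adjusted p = 0.0462). Without Nanog +LIF -Dox C1-1, the library in which Tet1 was highest among SunTag cells, edgeR gave 0.94 (adjusted p = 0.0432). Dnmt3l gave 1.19 (adjusted p = 0.102), and 1.48 without Nanog -LIF -Dox C2-1 (adjusted p = 0.0342). DESeq2 gave 1.17 for Dnmt3l (adjusted p = 0.0281). Tet1 was called in 4 of 7 alternative fits and in 1 of 11 that left out a library. Dnmt3l was called in 2 of 7 and 1 of 11.

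Cells kept by induced Nanog in place of LIF were then set against cells with LIF and no Dox. Dnmt3a, Dnmt3b and Tet3 were called, all higher, where 28.1% of all genes were called. Dnmt3b differed by 2.96 on the log2 scale (SE 0.28, adjusted p = 5.27e-05), Dnmt3a by 1.27 (SE 0.23, adjusted p = 0.00243) and Tet3 by 1.10 (SE 0.22, adjusted p = 0.00447). Tet2 differed by -0.16 (95% interval -0.83 to 0.52) and Dnmt3l by -0.23 (-0.71 to 0.25), and neither was called. Uhrf1 gave 0.10 (-0.22 to 0.42), Tet1 0.16 (-0.47 to 0.78) and Tdg 0.24 (-0.03 to 0.52). Dnmt1 gave 0.42 (adjusted p = 0.111), and 0.51 when blocked on the clone (adjusted p = 0.0358). Of 7 alternative fits 3 called Dnmt1, and of 11 that left out a library 0 did.

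Withdrawal of LIF in Nanog SunTag cells that all received Dox gave 6 called genes, all higher, where 32.6% of all genes were called. Dnmt3b rose by 3.36 on the log2 scale (SE 0.34, adjusted p = 9.91e-05) and Dnmt3a by 1.86 (SE 0.27, adjusted p = 0.000737), while Tet2 gave 0.15 (95% interval -0.60 to 0.90). Tet1 rose from 6996 and 7484 to 15588, 17444 and 14354, by 1.15 (SE 0.33, adjusted p = 0.0214), and Tet3 from 238.7 and 396.5 to 580.8-674.1, by 0.96 (SE 0.25, adjusted p = 0.0136). Dnmt1 rose from 5034 and 7634 to 12179, 10951 and 10987, by 0.87 (SE 0.21, adjusted p = 0.00976). Only 2 libraries stand for LIF with Dox here, and 1 of them, C1-1, decided several calls: without it Dnmt1 gave 0.60 (adjusted p = 0.1), Tet1 1.10 (0.111) and Tet3 0.66 (0.106). Tet1 was also lost without +LIF +Dox C2-1 (1.24) or -LIF +Dox C1-1b (1.09). Tdg gave 0.41 (adjusted p = 0.0446), a call kept in 2 of 11 fits that left out a library (0.36 to 0.51 over all 11), kept without Nanog +LIF -Dox C1-1 or C2-1 and lost without any other library.

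**Figure D3:**
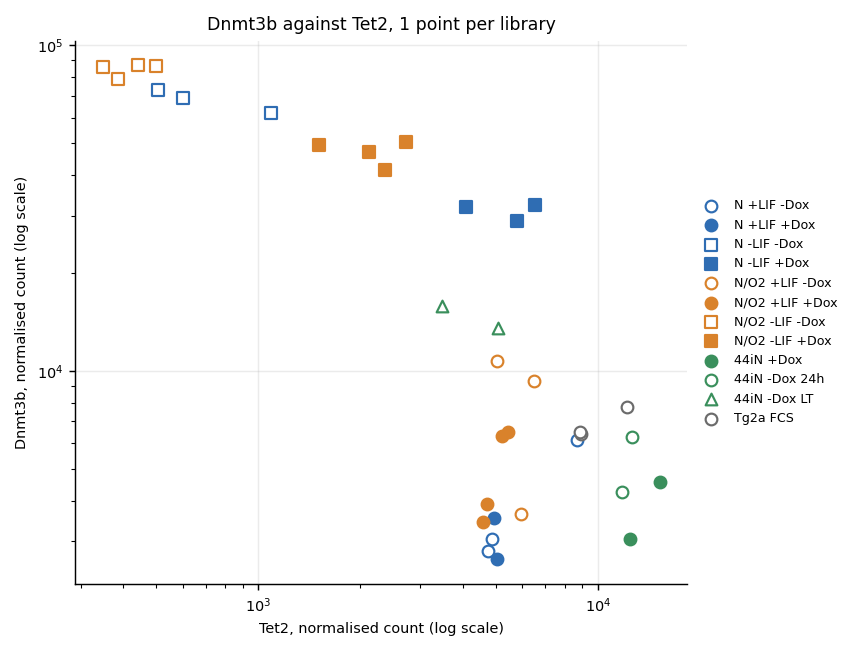
Normalised count of Dnmt3b against that of Tet2 (both axes log) in each of 35 libraries, with squares for cells without LIF, triangles for LT 44iN cells and circles for the others, filled with Dox. Libraries without LIF and Dox lie at 61951 to 86763 for Dnmt3b and 349.7 to 1091 for Tet2, and libraries without LIF but with Dox at 28834 to 50608 and 1512 to 6514.

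The ratio of Dnmt3b to Tet2 was higher without LIF than with it in each kind of SunTag cells, without overlap. Per kb it was 1.06 to 1.27 in Nanog SunTag cells with LIF and no Dox, 102 to 259 without LIF and Dox, and 8.94 to 14.1 without LIF and with Dox. With both guides it was 1.10 to 3.83, 312 to 442 and 31.5 to 59.1. With LIF and Dox it was 0.944 to 1.28 and 1.34 to 2.19, which overlapped the ranges with LIF and no Dox. The ratio was 0.441 to 0.9 in the 4 44iN libraries compared around Dox removal, 1.15 to 1.32 in Tg2a cells and 4.80 to 8.21 in LT cells. Ranked by mean, the 5 highest conditions for Dnmt3b were Nanog/Otx without LIF and Dox, Nanog without LIF and Dox, Nanog/Otx and then Nanog without LIF with Dox, and LT cells, and none of these overlapped the next. From Nanog/Otx cells with LIF (7885) down to Nanog cells with LIF and Dox (3087), neighbours overlapped, except Tg2a cells (6892) and 44iN cells 24 h without Dox (5269). For Tet2, 44iN cells with Dox (13840), 24 h without it (12176) and Tg2a cells (10008) overlapped at the top. The 5 SunTag conditions from Nanog with LIF (6105) to Nanog/Otx with LIF and Dox (4992) overlapped in turn, as did LT cells (4291), and the 3 lowest, Nanog/Otx without LIF with Dox (2179), Nanog without LIF and Dox (732.9) and Nanog/Otx without both (419.5), were each apart. Over the 26 SunTag libraries, Pearson's r of the log2 levels was -0.79 for Dnmt3b and Tet2, 0.88 for Dnmt3a and Dnmt3b, 0.88 for Dnmt3a and Tet3, 0.85 for Dnmt3b and Tdg and -0.81 for Tet2 and Tdg, a description of libraries that share clones, treatments and depth.

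The 44iN cells asked the same of Nanog by its loss. Comparing 2 libraries in Dox with 2 after 24 h without it, 0 of 9 genes were called, 0 at an unadjusted p under 0.05 and 0 by DESeq2, where 0% of 14376 genes were called (1023 at an unadjusted p under 0.05, and 141 by DESeq2). Tet2 stood at 15213 and 12466 with Dox and at 12587 and 11766 without it (0.28 on the log2 scale, 95% interval -0.27 to 0.83), overlapping. Dnmt3a was at 2106 and 2101 with Dox and at 2791 and 3192 without it (-0.41, -0.92 to 0.09), which do not overlap, and Dnmt3b at 4576 and 3053 against 6285 and 4253 (-0.37, -1.09 to 0.34), which do. Within each replicate number Dnmt3b was lower with Dox, 4576 against 6285 and 3053 against 4253. With that number as a block after GC correction, Dnmt3a (-0.66, adjusted p = 3.35e-05) and Dnmt3b (-0.73, adjusted p = 2.63e-06) were called. That fit called 18% of all genes, 12.2% as lower, and was the 1 of 7 alternative fits to call either gene. The correction was chosen after seeing the data, and the block alone called neither. Leaving out 1 library at a time gave -0.68 to -0.07 for Dnmt3b, called in 1 of the 4 fits (without 44iN +Dox 1), each of which assumes that the lone library varied like the other group. With 2 libraries against 2 these intervals are wide. Nanog itself, 4.56 higher on the log2 scale, had an adjusted p of 0.0902. The joint test of Dox in Nanog SunTag cells with LIF and in 44iN cells called 0 of 9 genes, 0 at an unadjusted p under 0.05 and 0 by DESeq2, where 0.307% of all genes were called.

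Long-term culture without Nanog was compared with Tg2a wild-type cells. Here 3 of 9 genes were called, where 8.61% of all genes were: Dnmt3b and Dnmt3l higher and Tet2 lower in LT cells. Dnmt3l stood at 16281 and 15157 in LT cells, its highest level in any condition, and at 5902, 4390 and 6555 in Tg2a cells, 1.41 on the log2 scale (SE 0.18, adjusted p = 0.00616). Dnmt3b was at 13571 and 15853 against 7771, 6403 and 6502, 1.02 (SE 0.16, adjusted p = 0.0115). Tet2 was at 5101 and 3481 against 12221, 8910 and 8894, -1.30 (SE 0.23, adjusted p = 0.0166). None of the 3 pairs overlapped. All 3 calls were lost when either LT library was left out, which assumes that the lone LT library varied like the Tg2a libraries: without the first, Dnmt3b gave 1.11, Dnmt3l 1.34 and Tet2 -1.62 (adjusted p 0.102 to 0.116), and without the second 0.86, 1.42 and -1.09 (adjusted p 0.0786 to 0.141). Dnmt3b was also lost without Tg2a replicate 2 (0.98, adjusted p = 0.0643). The other 6 genes were not called: Dnmt3a gave 0.19 (95% interval -0.12 to 0.50), Dnmt1 0.04 (-0.31 to 0.40), Uhrf1 -0.08 (-0.41 to 0.26), Tet1 -0.44 (-0.98 to 0.09), Tet3 -0.27 (-0.89 to 0.36) and Tdg 0.19 (-0.14 to 0.51). LT cells differ from Tg2a cells in G418 selection and in the transgenes as well as in Nanog, which cannot be told apart. In this comparison 5 of 6 naive markers fell, 1 of 4 formative markers, Otx2, rose, and 0 of 6 endoderm markers were called at summed levels of 6342 to 9573 in LT and 5091 to 7362 in Tg2a cells. The part of these markers in the result was not tested.

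**Figure D4:**
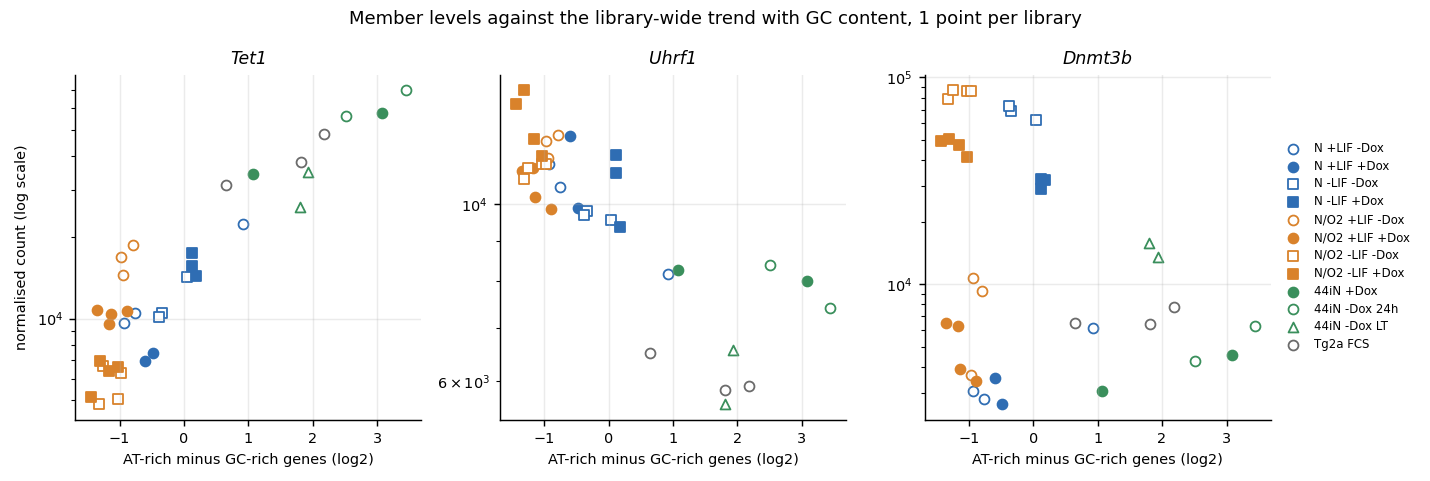
Normalised counts (log axis) of Tet1, Uhrf1 and Dnmt3b against each library's trend with GC content (AT-rich minus GC-rich genes, log2), 1 point per library. Tet1 rises along the trend (r = 0.92 over 35 libraries), Uhrf1 falls along it (r = -0.82), and Dnmt3b shows r = -0.32.

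The levels of some genes followed the GC trend of the library. Over 35 libraries Pearson's r of the log2 level with that trend was 0.92 for Tet1, whose exons have 43.7% GC, -0.82 for Uhrf1 (53.7% GC), -0.73 for Dnmt1, 0.57 for Tet2 and -0.54 for Dnmt3a, and within -0.33 to 0.14 for Dnmt3b, Dnmt3l, Tet3 and Tdg. Tet1 stood at 25819 to 69960 in 44iN and Tg2a cells and at 4839 to 22461 in SunTag cells. Uhrf1 ran from 5620 to 8382 in the first and from 8164 to 13887 in the second. Line and trend move together there and cannot be told apart. Within the SunTag cells, the fall of Tet1 on LIF withdrawal in Nanog/Otx cells was -1.58 with and without correction for GC content, an alternative chosen after seeing the data.

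The 2 parent clones added a second axis. Dnmt3a was higher in cells derived from C2 than in those from C1 in 8 of 8 SunTag conditions, by 1.21- to 1.75-fold. The clones' libraries did not overlap in these, but with so few libraries that is easily met. Tdg was also without overlap in 8 of 8 conditions, though higher in C2 in only 5, and Tet3 and Nanog were so in 7. The same was not counted over all genes. Dnmt3b in cells with LIF and no Dox was lower in C2, 0.476-fold in Nanog and 0.364-fold in Nanog/Otx SunTag cells. Dnmt3l without LIF and Dox was 1.65-fold and 2.36-fold higher in C2, and Nanog there was at 0.288-fold and 0.342-fold of C1. Each clone gave 1 or 2 libraries per condition, so these are values and not tests.

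The wider pathway was taken as lists of genes chosen with earlier results of these data known, and counts are given for LIF withdrawal without Dox in Nanog and then in Nanog/Otx SunTag cells, where the median log2 fold change of all genes was -0.05 and -0.01 and 41.5% and 49.8% of all genes were called. The shares of the lists called lay on both sides of these, so nothing is read from the counts. Every gene named from these lists was called in both. Of 12 partners and guides of the writers, 2 rose and 3 fell, and 2 rose and 5 fell (medians 0.15 and -0.09). Prdm14, a repressor of the de novo methyltransferase genes in naive cells, gave log2 fold changes of -4.38 (SE 0.38) and -4.33 (SE 0.15). Zfp57, a zinc finger protein that protects methylation at imprinted loci, gave -3.28 (SE 0.19) and -3.23 (SE 0.14), and its corepressor Trim28 -0.56 and -0.37. With Dox in cells without LIF, Prdm14 rose by 3.28 and 3.04 and Zfp57 by 2.45 and 2.34, the only genes of this list called in that comparison.

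Of 8 readers of methylated CpG, 1 rose and 1 fell, and 1 rose and 2 fell (medians 0.27 and 0.09). Zbtb33, the Kaiso protein, gave 1.26 (SE 0.29) and 0.57 (SE 0.11), and Mbd2 gave -0.54 (SE 0.18) and -0.39 (SE 0.10). Of 16 repair and other erasure factors, 2 rose and 5 fell, and 4 rose and 5 fell (medians -0.28 and -0.18). Gadd45g rose by 1.98 (SE 0.56) and 2.08 (SE 0.28) while its relative Gadd45b fell by 1.88 (SE 0.49) and 1.49 (SE 0.40), and the cytidine deaminase genes Apobec1 (by 2.02 and 1.29) and Apobec3 (by 1.07 and 1.39) fell. Gadd45g was a low gene, at 8.033 to 46.93 normalised counts with LIF and 65.92 to 140.1 without it in Nanog SunTag cells. Of 8 genes of methyl donor and cosubstrate supply, 2 rose and 2 fell, and 1 rose and 1 fell (medians -0.13 and -0.02). Ahcy, which clears the methylation product S-adenosylhomocysteine, gave 0.86 (SE 0.18) and 0.53 (SE 0.14), and Idh2, which makes the cosubstrate of the Tet enzymes, -1.06 (SE 0.21) and -0.98 (SE 0.25). Of 10 S phase genes, 2 rose and 0 fell, and 1 rose and 1 fell (medians 0.12 and 0.10), among them Ccne2 at 1.07 (SE 0.30) and 0.46 (SE 0.14).

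For each gene the 3 genes most like it in pattern were those with the highest Pearson r of log2 level over the 35 libraries among 11291 genes, given here as a description of libraries that share clones and depth. For Dnmt3b they were Pim2 (r = 0.98), Cxcl12 and Zfp608 (both 0.97). For Dnmt3a they were Jph1, Cnksr3 and Sox11 (0.94 each), and for Dnmt3l, the least matched, Lama3 (0.76), Icosl and Akr1b8 (0.71 each). For Dnmt1 they were Dnmbp (0.95), Dot1l and Brpf1 (0.94 each), and for Uhrf1 Ung (0.94), Wdr34 (0.91) and Ppil1 (0.9). Tet2 was matched best by Zfp57 (0.97), Ahnak and Gabbr1 (0.96 each), Tet3 by Grip1, Zfhx3 and Trio (0.92 each), Tet1 by Piga, Brwd1 and Dcp2 (0.97 each) and Tdg by Sephs1 (0.95) and Kcnj3 (0.9). Tet1, Uhrf1 and Dnmt1 also followed the GC trend of these libraries (r = 0.92, -0.82 and -0.73). That trend differs between lines, and its part in these matches was not tested.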

How the data were processed

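RNA-seq was analysed in 35 libraries of 12 conditions. Per the labels and the study's methods, single-end reads from a stranded mRNA kit were aligned to mm9 with STAR after base calling with CASAVA 1.8 and counted per gene with RSEM, set to reads from the reverse strand. The authors deposited a table of estimated counts (expected counts, a fractional share for reads that suit several genes) and a table of normalised counts, a signal made by dividing each library's counts by a DESeq2 size factor. Versions of STAR, RSEM and DESeq2 were not given in the sources used here.

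The estimated counts were rounded and tested with edgeR 4.0.16 (R 4.3.3), using TMM scaling and the quasi-likelihood test with Benjamini-Hochberg adjustment over all genes tested, a threshold of 0.05 and 95% intervals. Genes entered a model when all libraries of 1 or more of its conditions held 10 or more normalised counts. Separate models held the 11 Nanog SunTag, 15 Nanog/Otx SunTag, all 26 SunTag, 4 44iN and 5 LT and Tg2a libraries, and a joint model 9 libraries with LIF. Levels are the deposited normalised counts, divided by annotated exon length where genes are compared. That length joins the exons of all annotated transcripts of a gene and can exceed the length of those expressed. Per-kb levels, ratios and shares of the 9 genes depend on it. Correlations used log2(normalised count + 1) and genes with a mean of at least 100. Tables and plots were made with matplotlib 3.10.9, numpy 2.4.6 and pandas 2.3.3 under Python 3.11.15. The main edgeR fit of each model was run on simulated counts for 1 comparison, and most of the alternative fits were not.

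Members and gene lists were chosen with earlier results of these data known. Named are all 9 members, Nanog and Otx2 as a check of the labels, up to 4 genes per list called in LIF withdrawal with both sets of guides (by the smaller change), and the 3 best correlated genes per member, of which 1 is not reported here. SunTag samples share their 2 parent clones by design. Over 11291 genes, deviations from the group mean correlated at 0.22 on average (lowest -0.07) between libraries of the same clone in Nanog SunTag cells and at 0.41 (lowest 0.22) between libraries of the same clone and number in Nanog/Otx SunTag cells (lowest 0.17 by the numbers in the column names, which differ from the title for 1 library), against -0.21 and -0.14 otherwise. Replicates are repeat cultures of few clones, so p-values measure only the spread between these samples. The smallest exact permutation p for 2 libraries against 2 is 0.333, two-sided.

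Alternatives were DESeq2 1.42.0, DESeq2 size factors, no filter, edgeR's filterByExpr, a replicate block, leaving out each library and, added after seeing the data, a correction for GC content in 40 bins and a block by the numbers in the column names. Libraries of Tg2a cells in 2i and the ChIP-seq and ATAC-seq samples were not used here.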

Additional observations from a re-analysis of the deposited data

Results flagged for a closer look

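One of 27 groups of 4 libraries had a member level far from the others. It was Dnmt3b in Nanog/Otx SunTag cells without LIF and Dox, where the C1ON3-1 library, at 78562 normalised counts, lay below 3 libraries at 85777 to 86763, a gap of 0.88 of the group's range. Chance alone gives such a gap in about 1 of 20 groups. Without that library the log2 fold change of Dnmt3b with Dox in cells without LIF was -0.84 (adjusted p = 0.0599, edgeR).

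Tet2 responded to Dox differently with and without LIF in Nanog SunTag cells, by 3.24 on the log2 scale (SE 0.49, adjusted p = 0.00908, edgeR's quasi-likelihood test). Without LIF, 3 of 3 libraries with Dox lay above every library without it, while with LIF both libraries with Dox lay within the range of those without it.

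Tet1 responded to LIF withdrawal without Dox differently in Nanog and Nanog/Otx SunTag cells, by -1.28 (SE 0.30, adjusted p = 0.0267, edgeR's quasi-likelihood test). Guide, clone and series of library names cannot be told apart in it. The 4 Nanog/Otx libraries without LIF and Dox all lay below the 3 with LIF, while those of Nanog SunTag cells overlapped. In the latter, C1 went from 22461 to 10451 and 14288, and C2 from 9620 and 10488 to 10148. GC trends of these libraries were -1.32 to -0.79 in Nanog/Otx and -0.93 to 0.92 in Nanog SunTag cells, and their part in the difference was tested only by the GC correction, which left it at -1.20 (Tet1, adjusted p = 0.00184).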

How the results depend on the processing

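Of the pairs of gene and comparison, 84 were called in no fit of all libraries (38 of them changed sign in some fit), 51 in at least 1 and 34 in the fit reported. For these 51, 342 of 389 alternative values kept their direction and their side of the threshold, 8 lost the call, 39 gained it and 0 reversed. With 1 library left out, 576 of 635 were kept, 48 lost, 11 gained and 0 reversed. The number of the 9 genes called moved by over 1.5 times in these cases, of which the cause was not tested. Percentages are the shares of all genes called in the same fits, which moved as well. Dox without LIF in Nanog SunTag cells gave 2 (5.14%), but 4 with DESeq2 (9.66%) and 1 with GC correction (6.65%). Dox with LIF in the same cells gave 0 (0.563%), but 1 with the replicate block and GC correction (4.58%). The interaction gave 1 (1.93%), but 3 with DESeq2 (5.61%), 2 with GC correction (2.89%), 2 with the replicate block (4.54%) and 3 with both (7.12%). Dox without LIF in Nanog/Otx SunTag cells gave 4 (17.3%), but 2 without a filter (7.85%). Dox with LIF there gave 2 (22.9%), but 4 with GC correction, without (30.6%) or with (48.2%) the replicate block. With GC correction and a block by the column's number it gave 5 (49.7%). The LIF response between guides gave 1 (2.49%), but 2 with the replicate block and GC correction (9.06%). In 44iN cells 0 were called (0%), but 2 with the block and GC correction (18%), Dnmt3a (-0.66, adjusted p = 3.35e-05) and Dnmt3b (-0.73, adjusted p = 2.63e-06). By less than that, LIF withdrawal with Dox moved from 6 (32.6%) to 5 without a filter (19.2%) or with GC correction (36.8%). Nanog in place of LIF moved from 3 (28.1%) to 4 with GC correction (33.5%) or the block (32.3%). LIF withdrawal moved from 6 (41.5%) to 7 with the block (46.3%) in Nanog SunTag cells. In Nanog/Otx SunTag cells it moved from 6 (49.8%) to 7 with DESeq2 (51.4%), GC correction (49.7%) or the block (61.8%). There it reached 8 with the last 2 together (60.8%). Dox gave 3 in place of 4 with GC correction in Nanog/Otx SunTag cells without LIF (19.8%), and 3 in place of 2 with the block there with LIF (41%). In Nanog SunTag cells without LIF it gave 3 in place of 2 without a filter (3.45%) or with the block (8.8%). The replicate block changed no call other than those given beside the results.

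Leaving out each library in turn gave 0 to 2 genes called for 44iN cells, 0 to 0 for the joint test, 0 to 1 and 0 to 0 for the Dox response between guides with and without LIF, 0 to 0 and 1 to 5 for Dox in Nanog SunTag cells with and without LIF, 2 to 3 and 2 to 4 for Dox in Nanog/Otx SunTag cells with and without LIF, 0 to 3 for the interaction and for the LIF response between guides, 6 to 6 and 2 to 6 for LIF withdrawal in Nanog SunTag cells without and with Dox, 6 to 7 in Nanog/Otx SunTag cells, 3 to 5 for Nanog in place of LIF and 0 to 3 for LT cells.

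Over all genes, Dox without LIF in Nanog SunTag cells called 803 genes, 1509 with DESeq2 and 1375 with the replicate block. With LIF the numbers were 88, 587 and 293, for the interaction 302, 877 and 709, for the LIF response between guides 403, 856 and 864, for the Dox response between guides 5, 41 and 8 without LIF and 6, 54 and 18 with LIF, and for the joint test 48, 410 and 153. The block raised Dox in Nanog/Otx SunTag cells from 2702 to 5215 without LIF and from 3577 to 6401 with it. GC correction turned 2015 genes higher and 1562 lower with Dox and LIF there into 1604 and 3177. In 44iN cells the samples share only a number (correlation 0.65 over 2 pairs), and the block called 1912 genes, 0 of the 9 among them. LT cells called 1286 genes, 2294 with DESeq2 and 2547 with GC correction. No paired analysis was made for LT against Tg2a cells because the labels name no culture or clone shared by their samples. Levels under TMM moved by over 1 SD in 10 of 108 cases.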

Other observations

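Ratios between members were also taken within each library of Nanog SunTag cells. Uhrf1 over Dnmt1 per kb was 1.38 to 1.53 with LIF and no Dox, 1.60 and 2.99 with LIF and Dox, 1.02 to 1.10 without LIF and Dox and 1.05 to 1.23 without LIF and with Dox. In Nanog/Otx SunTag cells the same ratio was 1.45 to 1.57, 1.22 to 1.42, 1.31 to 1.48 and 1.35 to 1.73. Among erasers, Tet1 over Tet2 per kb was 1.24 to 1.62 and 1.78 to 1.81 with LIF and no Dox, 8.19 to 12.5 and 7.85 to 9.44 without LIF and Dox, and 1.50 to 2.20 and 1.61 to 2.13 without LIF and with Dox.

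Tet1 in Nanog SunTag cells with LIF and no Dox was at 22461 in the C1 library and at 9620 and 10488 in the C2 libraries, and Tet2 at 8676 against 4873 and 4765. The GC trend ranged from -0.93 to 0.92 over these 3 libraries, and its part was not tested.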
